A study of Saccharomyces cerevisiae with 25 samples.

Results

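The 10 genes described here encode the core histones of budding yeast, the histone variant H2A.Z and the linker histone. They are HTA1 and HTA2 (H2A), HTB1 and HTB2 (H2B), HHT1 and HHT2 (H3), HHF1 and HHF2 (H4), HTZ1 (H2A.Z) and HHO1 (H1). They were chosen by name among 6648 gene names in the expression table, not by their values, and all 10 passed the filter on low values in each comparison. The series is a time course of Saccharomyces cerevisiae without phosphate, measured by sequencing cDNA made from total RNA. The background is BY4741, a laboratory strain of mating type a. All libraries share the genotype written on the labels as pho84pr-YFP, delta-phm3, that is, a fluorescent reporter under the promoter of the phosphate transporter gene PHO84 and a deletion of PHM3 (now VTC4, a subunit of the vacuolar polyphosphate polymerase). There was 1 library at 0 min, from cells in high phosphate, and 24 libraries taken every 15 min from 15 to 360 min after a wash and transfer to medium lacking phosphate.

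Core histones form the octamer on which DNA is wound, and their genes are transcribed mainly around S phase, when replicated DNA needs new nucleosomes. In yeast each core histone is encoded by a pair of genes, arranged as divergent neighbours that share a promoter region: H2A beside H2B, and H3 beside H4. The activator Spt10 binds these promoters, and the HIR complex represses most of them outside S phase. H2A.Z is placed in nucleosomes beside promoters by the SWR1 complex, and Hho1 binds linker DNA.

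The 24 libraries without phosphate were grouped into 3 windows of 8: 15 to 120 min, 135 to 240 min and 255 to 360 min. No time point was replicated, and separate cultures are not mentioned in the labels. Neighbouring times are not independent, and p-values below measure spread among these libraries only, which may be partly technical. Depth ran from 106672 reads at 195 min and 188278 reads at 345 min to 1911747 reads, and the other 23 libraries held at least 501479 reads. Correlations with the 0 min library were taken over the 2205 genes listed in all 25 libraries. They were r = 0.971 at 90 min and r = 0.976 at 105 min, against 0.726 at 45 min and 0.671 at 135 min. VTC4 had between 50 and 517 reads in all 25 libraries, although the labels give it as deleted. Its level was between 7.66 and 8.87 in log2 reads per 1000000 listed reads. Which part of the gene was deleted is not stated, so the genotype is given as labelled phm3_del. MFA1, MFA2, STE2 and BAR1, markers of a cells, were present in all 25, while MF(ALPHA)1 was listed in 1, MF(ALPHA)2 in 0 and STE3 in 22 at a mean of 4.85 log2 RPM (RPM, reads per 1000000 listed reads). From the first to the last window STE3 fell by 0.64 (limma adjusted p = 0.0298), where 8.85% of all genes were lower. In the same comparison 1 of the 4 a-cell markers rose, beside 31.5% of all genes. Of these 4 markers, 3 rose from the first to the middle window, beside 21.3% of all genes. From 75 to 105 min to 135 to 165 min 3 rose, beside 25.1% of all genes. Their part in the results was not tested. In any comparison with 0 min, phosphate loss and the other steps of the transfer (washing, fresh medium, later harvest) cannot be told apart. In such bulk samples, fewer cells of a type and less RNA per cell cannot be told apart either.

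The copies of each core histone gene are close to identical, and this sets what can be measured. In the R64 genome, the coding sequences of HTA1 (chrIV:915530-915928, + strand) and HTA2 (chrII:235394-235792, - strand) were 93.7% identical, with 25 differing bases of 399 and 2 differing residues of 132. HTB1 (chrIV:914317-914712, - strand) and HTB2 (chrII:236492-236887, + strand) differed at 48 of 396 bases and 4 of 131 residues. HHT1 (chrII:256331-256741, + strand) and HHT2 (chrXIV:575640-576050, - strand) differed at 28 of 411 bases and encode the same protein. HHF1 (chrII:255373-255684, - strand) and HHF2 (chrXIV:576727-577038, + strand) differed at 8 of 312 bases, also with no differing residue. HTZ1 lies at chrXV:303579-303983 and HHO1 at chrXVI:308828-309604, both on the - strand. All 10 genes have a single exon. The stretches below show positions that tell copies apart. They are denser in differences than the whole coding sequences, with 13 of 48 positions for H2B against 48 of 396. They are coding bases 154 to 201 of the H2A genes, 55 to 102 of the H2B genes, 307 to 354 of the H3 genes and 169 to 216 of the H4 genes, 5′ to 3′ on the coding strand, from the RefSeq R64 assembly, with capitals where the copies differ.
HTA1 chrIV:915683-915730: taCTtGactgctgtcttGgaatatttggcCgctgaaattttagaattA
HTA2 chrII:235592-235639: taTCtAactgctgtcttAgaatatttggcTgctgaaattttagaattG
HTB1 chrIV:914611-914658: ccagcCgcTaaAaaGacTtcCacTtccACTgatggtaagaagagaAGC
HTB2 chrII:236546-236593: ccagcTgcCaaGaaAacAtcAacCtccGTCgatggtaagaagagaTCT
HHT1 chrII:256637-256684: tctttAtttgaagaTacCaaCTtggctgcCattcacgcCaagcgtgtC
HHT2 chrXIV:575697-575744: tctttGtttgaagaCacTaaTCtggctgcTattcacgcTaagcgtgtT
HHF1 chrII:255469-255516: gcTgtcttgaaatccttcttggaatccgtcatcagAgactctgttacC
HHF2 chrXIV:576895-576942: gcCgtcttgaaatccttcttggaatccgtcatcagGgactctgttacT
The H2B stretches differ at 13 of 48 positions and the H4 stretches at 3. Of all 50-base windows of the coding sequence, 21.3% were identical between the H4 copies, 12.2% between the H3 copies, 4.57% between the H2A copies and 0 between the H2B copies. Read length is not given, so these shares do not measure how many reads are shared. The longest identical run of the H2B copies was 35 bases, yet HTB1 and HTB2 were whole reads in only 10 of 25 libraries.

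The deposited values carry the trace of reads shared between copies. Converted back to reads, HTA1 and HTA2 were whole numbers in 2 of 25 libraries, HTB1 and HTB2 in 10, HHT1 and HHT2 in 4, and HHF1 and HHF2 in 2, within 0.02 reads. The sums HTA1 + HTA2, HTB1 + HTB2, HHT1 + HHT2 and HHF1 + HHF2 were each whole in 25 of 25 libraries. Fractions of reads were thus divided between the copies of a pair, and within each pair they added up to whole reads. HTZ1 was whole in 25 of 25 libraries and HHO1 in 24 of the 24 that list it. HTZ1 shares 0 windows of 50 bases with HTA1 or HTA2, although 80 of its 134 residues match Hta1. Results are given below for the pair sums, which do not depend on how shared reads were divided, and for single copies, which do. How reads were divided is not stated in the labels or the table.

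The core genes together had 1725 to 16987 reads per library, and HHO1 had 18 to 165 where listed. Per kb of coding sequence, the H4 pair had the highest level, at 13.29 ± 0.39 log2 RPM per kb (SD, n = 25 libraries). The H3 pair followed at 12.74 ± 0.31 and the H2A pair at 12.68 ± 0.40, and H3 exceeded H2A in 14 of 25 libraries, so these neighbours in the order did not differ beyond their spread. The H2B pair stood at 11.42 ± 0.35 log2 RPM per kb and was below the H2A pair in 25 of 25 libraries, by 1.27 ± 0.24 on the log2 scale. The gap was widest in the 195 min library, where the log2 ratio of the H2B to the H2A sum in RPM was -2.31, and it ran from -1.57 to -1.04 in the others. HTZ1 was at 9.14 ± 0.27 and HHO1, the least abundant, at 7.12 ± 0.46 (n = 24). Among single genes, whose order also rests on the division of shared reads, HHF1 had the highest mean (12.54 ± 0.50 log2 RPM per kb) and HTB1 the lowest mean of the core genes (9.91 ± 0.30). HHF1 exceeded HHT2, the next in order, in 20 of 25 libraries, and at 0 min it was below both HHF2 and HHT2. HTB2 exceeded HTB1 in 25 of 25 libraries.

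Over time the core histone transcripts had a pair of maxima. The 8 core genes together stood at 13.05 log2 RPM (8480 RPM) at 0 min and 12.78 (7021 RPM) at 45 min. They stood at 13.80 (14245 RPM) in the 90 min library and at 12.87 (7481 RPM) in the 135 min library. A level of 13.75 (13735 RPM) was reached again at 210 min, and the shallow 195 min library had the highest value, 14.07. At 360 min the sum was 12.94 (7884 RPM). Each pair sum was above its 0 min level at 75 and 90 min and within 0.10 of it or below at 105 to 150 min. From 180 to 270 min each was above it again, except for the H2B sum at 195 min. From 285 min on, the H2A, H3 and H4 sums lay within 0.29 of the 0 min level and the H2B sum was below it in each library. The later maximum falls within the middle window, whose comparisons are given below, and was not tested by itself.

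**Figure D1:**
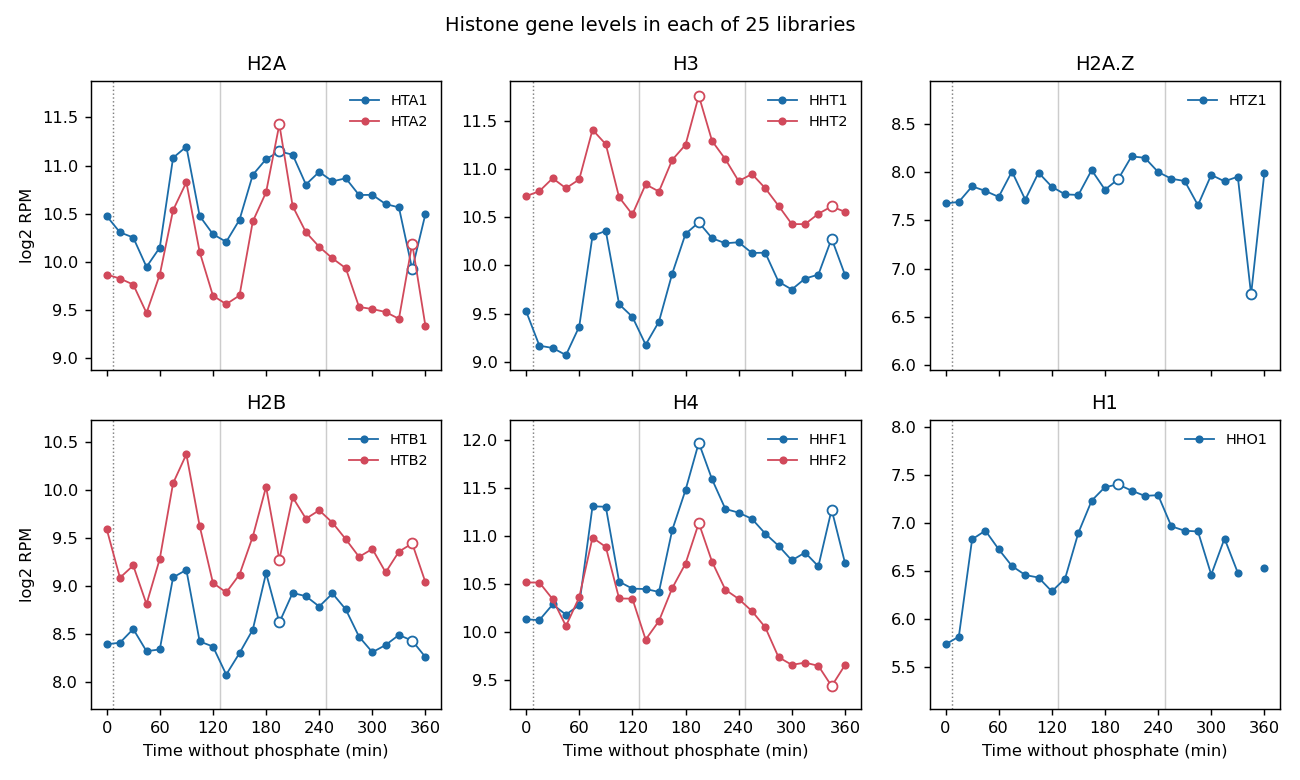
Level of each histone gene (log2 RPM) against time without phosphate (min), 1 point per library, with both copies of a core histone in 1 panel and the same 3-unit span on each vertical axis. Open points are the shallow libraries at 195 and 345 min, the dotted line follows the 0 min library, and grey lines separate the windows. Most copies of H2A, H2B, H3 and H4 show maxima at 75 to 90 min and at 180 to 210 min, whereas HTZ1 stays between 7.66 and 8.16 except for 6.73 at 345 min.

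H2A, the histone that pairs with H2B, showed the largest difference among pair sums around the first maximum. HTA1 + HTA2 stood at 11.03, 10.73 and 11.01 log2 RPM at 30, 45 and 60 min and at 11.83, 12.02 and 11.30 at 75, 90 and 105 min. The later group lay wholly above the earlier one. For this and the other pairs such separation is description only, since the share of all genes that separate so was not counted. The difference was 0.80 on the log2 scale (SE 0.26, 1.74-fold, adjusted p = 0.0369, limma with Benjamini-Hochberg adjustment). HTB1 + HTB2 stood at 9.92, 9.59 and 9.89 log2 RPM at 30 to 60 min and at 10.66, 10.89 and 10.15 at 75 to 105 min. These groups did not overlap either, with a difference of 0.77 (SE 0.25, limma adjusted p = 0.0341).

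The genes of H3 and H4, which form the central tetramer of the nucleosome, had smaller differences between the same libraries. The pairs were not tested against each other. HHF1 + HHF2 was at 11.32, 11.12 and 11.32 log2 RPM and then at 12.15, 12.11 and 11.44, a difference of 0.65 (SE 0.25, limma adjusted p = 0.0696), with no overlap. HHT1 + HHT2 was at 11.28, 11.18 and 11.32 and then at 11.96, 11.88 and 11.26, so that the 105 min value lay among the earlier ones, and the difference was 0.44 (SE 0.24, limma adjusted p = 0.183). HTZ1 differed by 0.11 (interval from -0.33 to 0.54) and HHO1 by -0.34 (interval from -0.84 to 0.15), and neither passed.

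Fitted as single genes, 5 of the 10 were higher at 75 to 105 min than at 30 to 60 min: HTA1 by 0.80, HTA2 by 0.79, HTB2 by 0.92, HHT1 by 0.90 and HHF1 by 0.79 (log2, limma adjusted p from 0.0171 to 0.0465). Of all 4805 genes tested, 29.4% were called in this comparison, 10.4% higher and 19.0% lower. The median of the 10 histone genes was 0.64 and the median of all genes tested was -0.22. No histone gene was lower. These time points were taken from earlier results of the same data and not from the labels. With each library centred on its median gene, 663 genes were higher and 625 lower in place of 498 and 913, and 7 histone genes were called. With copies added as well, all 4 pair sums passed, the H3 sum at 0.64 (limma adjusted p = 0.0369) and the H4 sum at 0.85 (adjusted p = 0.016). The calls rested on few libraries. Of the 5 single-gene calls between 0 and 5 were left when 1 library was left out: all were lost without the 90 min library (adjusted p from 0.0893 to 0.193) and without the 45 min library, and HTB2 alone was left without the 30 or the 75 min library. Without the 60 min library HHF1 was lost, and without the 150 min library HTA2. With unlisted values set to the lowest listed value, 3 histone genes passed. Left out singly, the 30, 45, 75 and 90 min libraries each ended the calls of the H2A sum (adjusted p = 0.0621, 0.121, 0.0694 and 0.159) and of the H2B sum (0.0546, 0.118, 0.0595 and 0.155), with differences between 0.60 and 0.85, and the H2A sum was also lost without the 150 min library (0.0502), while without the 105 min library the differences were 1.01 and 0.98 (adjusted p = 0.0254 and 0.022).

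The libraries at 90 and 105 min, which were both close to 0 min across the genes listed in every library, were not alike in histone transcripts. The core sum was 0.75 above 0 min on the log2 scale at 90 min and 13.12 against 13.05 log2 RPM at 105 min. From 75 to 105 min to 135 to 165 min, HTB2 fell by 0.83 (SE 0.25, limma adjusted p = 0.0228), the 1 histone gene of 10 to pass, lost when 90, 135 or 150 min was dropped (adjusted p between 0.0686 and 0.111), where 36.3% of all genes were called, 25.1% higher and 11.1% lower. The H2B sum fell by 0.75 (SE 0.25, limma adjusted p = 0.0314), and the sums of H2A (-0.49), H3 (-0.33) and H4 (-0.48) did not pass. The H2B call was lost when 75, 90, 135 or 150 min was left out (adjusted p from 0.0581 to 0.14). Centring moved the count of histone genes called to 5, all of them lower, and the median gene stood 0.29 higher in this comparison. Between 135 to 165 min and 30 to 60 min, 0 of 10 histone genes differed (limma, also 0 at an unadjusted p under 0.05), against 0.125% of all genes, 0.0416% higher and 0.0832% lower.

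**Figure D2:**
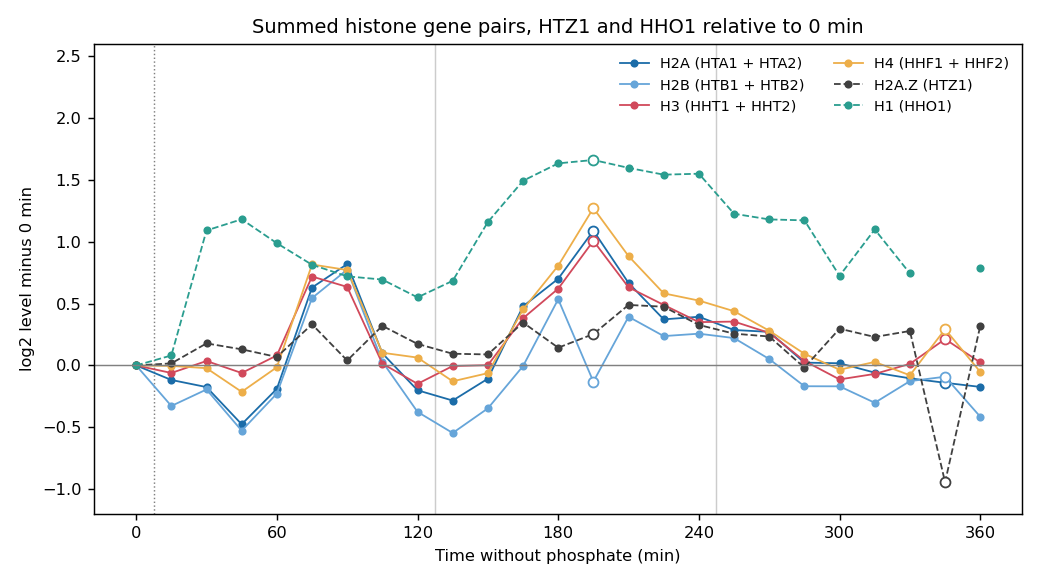
Summed level of each core histone pair, and of HTZ1 and HHO1, minus the same quantity at 0 min (log2), against time without phosphate (min), 1 point per library. Open points are the shallow libraries at 195 and 345 min. The 4 core sums lie above 0 together at 75 to 90 min and narrowly at 105 min. They lie above it again from 180 to 270 min, except for the H2B sum at 195 min. HHO1 is already above 1 at 30 and 45 min.

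Between the long windows the summed core histones did not pass the test in any comparison. HHF1 + HHF2 was at 11.53 ± 0.39 log2 RPM at 15 to 120 min, 11.88 ± 0.47 at 135 to 240 min and 11.46 ± 0.19 at 255 to 360 min (SD, n = 8 libraries each). HTA1 + HTA2 was at 11.25 ± 0.45, 11.62 ± 0.44 and 11.22 ± 0.18 in the same windows. HHT1 + HHT2 was at 11.39 ± 0.33, 11.68 ± 0.34 and 11.33 ± 0.17, and HTB1 + HTB2 at 10.08 ± 0.46, 10.16 ± 0.37 and 9.99 ± 0.20. The middle window was the highest for each pair, and the spread was smallest in the last window. From the first to the last window the sums differed by -0.03 (H2A), -0.09 (H2B), -0.06 (H3) and -0.07 (H4) on the log2 scale, with intervals that together ran from -0.45 to 0.35 (limma adjusted p from 0.732 to 0.901). The median of all genes stood 0.23 higher between these windows and that of the 10 histone genes was -0.08. With libraries centred on the median gene, or on genes listed in all 25, the sums did not pass either.

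Among single copies HHF2, an H4 gene, was the 1 of 10 that differed between the first and the last window. It ranged from 10.06 to 10.98 log2 RPM (median 10.36) at 15 to 120 min, from 9.92 to 11.13 (median 10.45) at 135 to 240 min and from 9.44 to 10.22 (median 9.67) at 255 to 360 min. The ranges of the first and the last window overlapped. HHF2 fell by 0.72 from the first to the last window (SE 0.16, 1.65-fold lower, limma adjusted p = 0.000784), where 40.4% of all 4634 genes tested were called, 31.5% higher and 8.85% lower. It also fell by 0.72 from the middle to the last window (limma adjusted p = 0.0143), where 2.07% of genes were called, 1.17% higher and 0.906% lower. The neighbouring H3 gene HHT2 differed by -0.51 there (adjusted p = 0.0563) and HTA2 by -0.68 (adjusted p = 0.0939), and neither passed. With libraries centred on the median gene, HHF2 missed the threshold in the last comparison (-0.71, adjusted p = 0.0545), and HHT2 (-0.61, adjusted p = 0.00321) and HTA2 (-0.65, adjusted p = 0.0141) were also called between the first and the last window, with 600 genes higher and 840 lower in place of 1462 and 410.

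From the first to the middle window, 2 of 10 histone genes rose, where 26.5% of all genes were called, 21.3% higher and 5.18% lower. They were HHF1, the other H4 gene, by 0.63 (SE 0.21, 1.54-fold, limma adjusted p = 0.0263) and HHO1 by 0.65 (SE 0.16, 1.57-fold, limma adjusted p = 0.00363). HHF1 ranged from 10.13 to 11.31 log2 RPM (median 10.37) in the first window and from 10.42 to 11.97 (median 11.26) in the middle one. Its call was lost without the 15 min (adjusted p = 0.0561), the 195 min (0.0615) or the 210 min library (0.0515). With libraries centred on the median gene neither was called (HHF1 0.30, adjusted p = 0.364, HHO1 0.32, adjusted p = 0.273), and 221 genes were higher and 353 lower in place of 987 and 240.

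**Figure D3:**
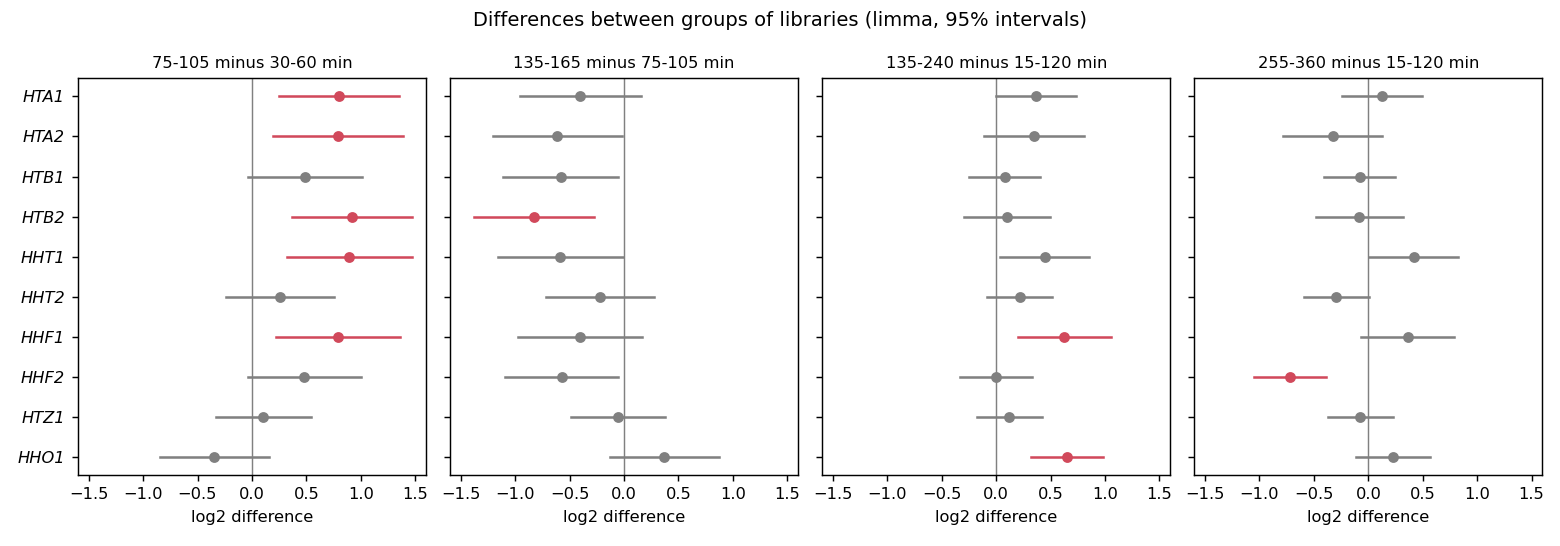
Difference in log2 level between groups of libraries for each of the 10 histone genes (points) with 95% intervals (bars), from limma fits over all genes. Red marks an adjusted p under 0.05: 5 genes are higher at 75 to 105 min than at 30 to 60 min, HTB2 is lower after it, HHF1 and HHO1 are higher in the middle window, and HHF2 is lower in the last.

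The balance between copies shifted for H4 and H3. A ratio of copies within a library does not depend on the scaling of that library, but it does depend on how shared reads were divided. HHF2 exceeded HHF1 at 0 min, with a log2 ratio of 0.38, and was below it in every library from 75 min on. The log2 ratio ranged from -0.42 to 0.39 (median -0.11) at 15 to 120 min, from -0.90 to -0.30 (median -0.80) at 135 to 240 min and from -1.83 to -0.96 (median -1.07) at 255 to 360 min. The last window overlapped neither of the others. Its mean was 1.08 lower than that of the first window, a 2.11-fold shift towards HHF1 (exact permutation test, two-sided, adjusted p = 0.000777 over 15 tests, from the smallest p that 8 against 8 libraries allow, 0.000155). The middle window was 0.63 lower than the first (exact permutation test, adjusted p = 0.00175) and the last was 0.45 lower than the middle (adjusted p = 0.000777, exact permutation test).

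HHT2/HHT1, the H3 pair on the same loci, shifted in the same sense. The log2 ratio ranged from 0.90 to 1.76 (median 1.32) in the first window, from 0.63 to 1.67 (median 1.10) in the middle and from 0.33 to 0.82 (median 0.66) in the last. HHT2 was above HHT1 in every library, and the first and last windows did not overlap. The last window was 0.71 lower than the first (1.63-fold, exact permutation test, adjusted p = 0.000777) and 0.48 lower than the middle (exact permutation test, adjusted p = 0.00373), while the middle and first differed by -0.23 (adjusted p = 0.346, exact permutation test). Within the first window the ratio was between 1.53 and 1.76 from 15 to 60 min and between 0.90 and 1.11 from 75 to 120 min, then 1.67 at 135 min.

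For the copies of H2A and H2B, no ratio comparison passed with all libraries kept. HTB2/HTB1 had mean log2 ratios of 0.85 ± 0.27, 0.87 ± 0.12 and 0.85 ± 0.13 in the 3 windows (SD, n = 8 each), and none of its 3 comparisons passed (exact permutation tests, adjusted p from 0.919 to 0.972). HTA2/HTA1 had means of -0.46 ± 0.11, -0.47 ± 0.34 and -0.91 ± 0.49. Its last window was 0.45 below the first and did not pass (exact permutation test, adjusted p = 0.061). That comparison hung on 1 library. HTA2 exceeded HTA1 in the shallow libraries alone, with log2 ratios of 0.28 at 195 min and 0.27 at 345 min, and without the 345 min library the difference was -0.62 (exact permutation test, adjusted p = 0.00117). In the first window the ratio ran from -0.64 to -0.28, and the late libraries other than 345 min ran from -1.19 to -0.80. Of the 15 ratio tests 5 passed, 7 without the 195 and 345 min libraries and 5 without the 90 and 105 min libraries.

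**Figure D4:**
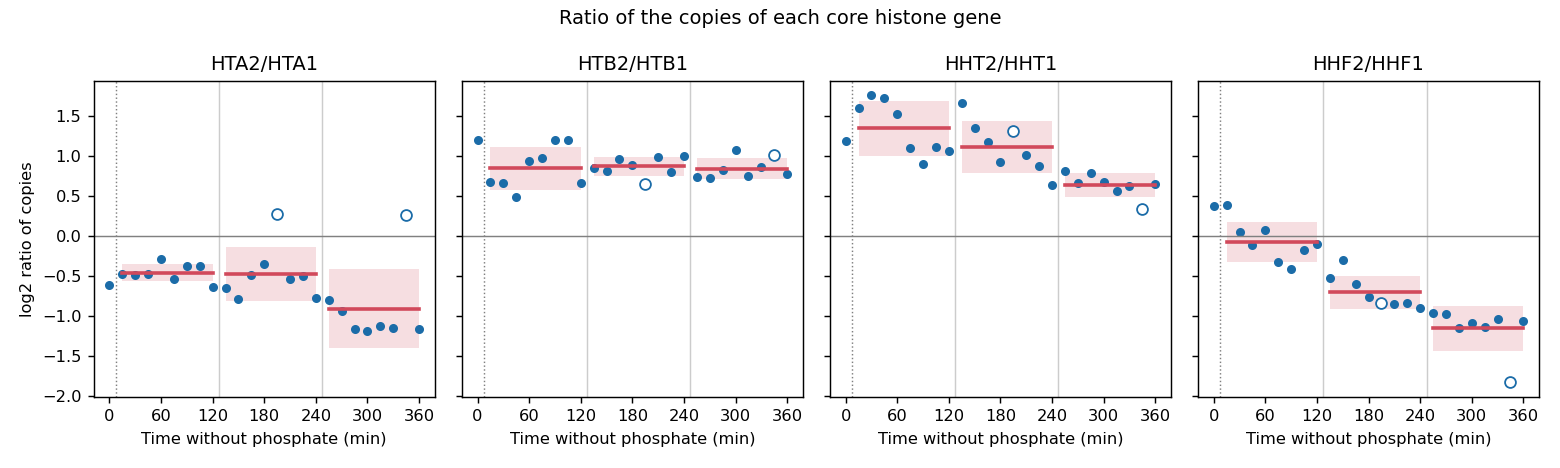
Log2 ratio of the copies of each core histone gene in each library (points) against time without phosphate (min), with the mean of each 8-library window (red line) and ± 1 SD (shading). Open points are the shallow libraries at 195 and 345 min. The HHF2/HHF1 means step from -0.08 to -0.70 to -1.16 and the HHT2/HHT1 means from 1.35 to 1.12 to 0.64, whereas HTB2/HTB1 stays near 0.85.

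Levels across libraries were compared between divergent neighbours, copies and other core genes. Pearson's r of log2 RPM over 25 libraries, which share depth and scaling, was 0.94 for HHT1 with HHF1, 0.86 for HHT2 with HHF2, 0.78 for HTA1 with HTB1 and 0.67 for HTA2 with HTB2. Between copies it was 0.88 for HTB1 with HTB2, 0.67 for HTA1 with HTA2, 0.49 for HHT1 with HHT2 and 0.36 for HHF1 with HHF2. Over the 20 other pairs of core genes it ran from 0.27 to 0.90 (median 0.69), highest for HTA2 with HHT2, which are neither neighbours nor copies. The kinds of pair thus overlapped. Each H3 gene was closer to its H4 neighbour than to the gene that encodes the same protein, while HHT2 was closer still to HTA2. All values of single copies depend on how shared reads were divided. HTZ1 correlated with the 8 core genes at 0.07 to 0.53 and HHO1 at 0.18 to 0.69.

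The promoter regions that divergent neighbours share hold matches to the Spt10 motif. The region between start codons is 817 bases for HTB1 and HTA1, 699 for HTA2 and HTB2, 646 for HHF1 and HHT1, and 676 for HHT2 and HHF2. The letters searched on both strands were TTCC, then 6 bases of any kind, TTC, 1 base of any kind and C. They occurred within 600 bases upstream of the start codon of 8 of 8 core histone genes, of neither HTZ1 nor HHO1, and of 208 of 5999 genes (3.47%). Divergent neighbours share a region, so these 8 genes stand for 4 regions. Spt10 is known to bind these promoters, so the matches there are no independent result. A stretch around 1 match in each region is shown, 5′ to 3′ on the strand of the match, from the RefSeq R64 assembly, with the fixed letters of the motif in capitals.
HTB1 and HTA1, chrIV:915096-915145, + strand: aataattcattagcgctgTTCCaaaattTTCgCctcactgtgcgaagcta
HTA2 and HTB2, chrII:236091-236140, - strand: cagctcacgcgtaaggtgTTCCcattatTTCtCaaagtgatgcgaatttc
HHF1 and HHT1, chrII:255927-255976, - strand: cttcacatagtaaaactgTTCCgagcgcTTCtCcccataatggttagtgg
HHT2 and HHF2, chrXIV:576329-576378, - strand: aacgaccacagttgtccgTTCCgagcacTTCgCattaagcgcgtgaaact
The region of HTB1 and HTA1 held a further match on the - strand. The SCB letters CGCGAAA, bound by the G1/S factor SBF, were found upstream of 4 core genes and of HHO1, against 6.45% of all genes. The MCB letters ACGCGT, bound by the related factor MBF, were found upstream of 2 core genes, against 6.33%. None of these matches overlapped another kind of motif. A match of letters is no measure of binding.

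**Figure D5:**
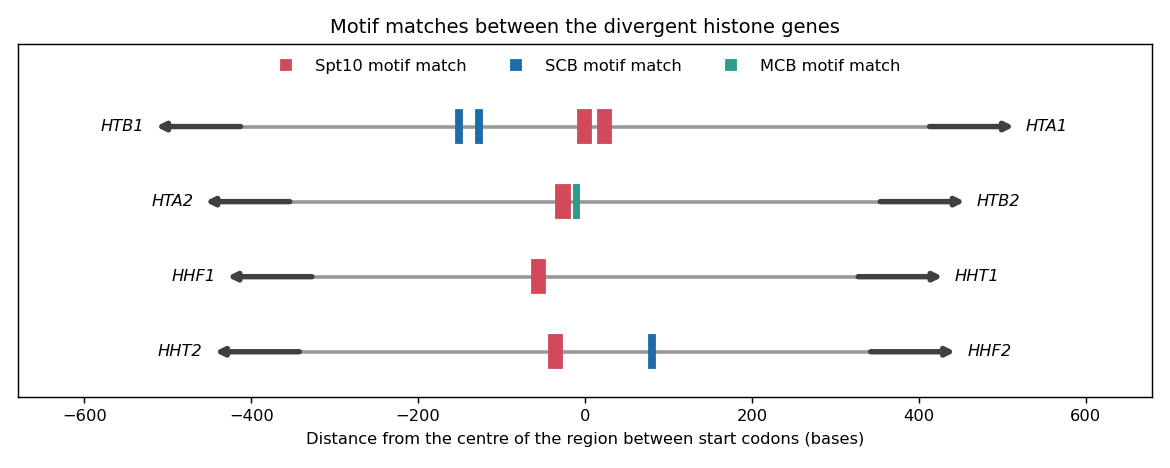
Map of the regions between the start codons of divergent histone genes, drawn to scale in bases from the centre of each region, with arrows for the direction of transcription. Boxes mark matches to the Spt10, SCB and MCB letters. An Spt10 match lies within 60 bases of the centre of each of the 4 regions.

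The linker histone gene HHO1 had its highest values around the later maximum of the core genes, but no maximum at 75 to 90 min. It stood at 5.74 log2 RPM at 0 min (78 reads) and 5.82 at 15 min (30 reads), then at 6.83 at 30 min and 6.92 at 45 min. It was back at 6.29 at 120 min and lay between 7.23 and 7.40 from 165 to 240 min. In the last window it lay between 6.46 and 6.96 in 7 libraries and was not listed at 345 min, taken to mean fewer than 10 reads. Every listed library without phosphate was above 0 min. Against that single library, HHO1 rose by 1.42 in the middle window (SE 0.34, 2.67-fold, limma adjusted p = 0.00327) and by 0.99 in the last (SE 0.34, 1.99-fold, limma adjusted p = 0.0289, without the 345 min library). It was the 1 of 10 histone genes called in each, where 25.7% and 30.5% of all 4613 genes tested were called, 20.6% and 25.0% higher and 5.12% and 5.46% lower. The first window stood 0.77 above 0 min and did not pass (limma adjusted p = 0.325). There 0 of 10 histone genes were called, 1 at an unadjusted p under 0.05, against 0.694% of all genes, all higher. The median gene was itself 0.43 and 0.42 higher in the middle and last windows than at 0 min. With the 345 min value set to the lowest listed value, the last-window difference was 0.87 and did not pass (limma adjusted p = 0.122). With libraries centred on that median the HHO1 differences were 0.83 (adjusted p = 0.151) and 0.50 (adjusted p = 0.401), with 264 genes higher and 383 lower in place of 949 and 236 for the middle window, and 393 and 440 in place of 1154 and 252 for the last. In that centred comparison of the last window HHF2 was called in place of HHO1, at -1.33 (limma adjusted p = 0.0166).

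HTZ1, which encodes the H2A variant, did not pass in any comparison. It stood at 7.68 log2 RPM at 0 min, 7.83 ± 0.12 at 15 to 120 min, 7.95 ± 0.16 at 135 to 240 min and 7.76 ± 0.43 at 255 to 360 min (SD, n = 8 each). The low value of 6.73 at 345 min rested on 20 reads (95% Poisson interval 12.2 to 30.9, counting error only), and without it the lowest late value was 7.66. From the first to the last window HTZ1 differed by -0.08, with an interval from -0.37 to 0.22. The H2A pair was more abundant than HTZ1 by means of 10.7-fold to 12.7-fold in the 3 windows, and the log2 ratio of HTZ1 to the H2A sum did not pass between them (exact permutation tests, adjusted p from 0.435 to 0.972).

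A smooth curve over the 24 libraries without phosphate, a spline with 4 degrees of freedom, passed for 4 of 10 histone genes, against 31.1% of all genes. They were HHF2 (limma F test, adjusted p = 0.0029), HHO1 (0.00879), HHF1 (0.0293) and HHT2 (0.0482). Of 24 fits that each left out 1 library, HHT2 did not pass in 14 and HHF1 in 4, while HHF2 and HHO1 passed in all 24. With copies added, HHO1 alone remained, and the H4 sum had an adjusted p of 0.114.

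Genes that act on histones and on replication were counted from lists chosen with earlier results of these data known. All counts from the first to the last window stand beside 31.5% of all genes higher and 8.85% lower, and none was tested against that share. Of 10 tested histone gene regulators among 12, 2 rose and 0 fell from the first to the last window: YTA7, a bromodomain ATPase bound at histone genes, by 0.65, and MBP1, the DNA-binding subunit of MBF, by 0.45. Of 12 tested chaperones and acetylation factors among 13, HIF1 (0.66), part of the Hat1 acetyltransferase complex, and NAP1 (0.48), a chaperone of H2A and H2B, rose and 0 fell. Of 11 tested genes of the SWR1 complex among 12, 4 rose and 0 fell: VPS72 by 1.02, SWC3 by 0.82, YAF9 by 0.55 and VPS71 by 0.49. Their medians were 0.17, 0.19 and 0.27, beside 0.23 for all genes tested.

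Of 25 DNA replication genes, RNR2, a small subunit of ribonucleotide reductase, rose by 1.17 and RFA3, a subunit of replication protein A, fell by 0.49 between the first and the last window, with a list median of -0.02. Of the cyclins of G1 and S phase, 0 of 3 tested passed there (limma). From the first to the middle window, where 21.3% of all genes were higher, 2 of the 3 rose, named after their values were seen: CLN1, a G1 cyclin, by 0.73 and CLB5, an S phase cyclin, by 0.48. CSE4 (chrXI:346075-346764, - strand), the H3 variant of centromeres, rose by 0.42 from the first to the last window (SE 0.15, limma adjusted p = 0.0267) and by 0.65 to the middle window (adjusted p = 0.00191). The median of all genes was itself 0.23 higher in the last window and 0.21 in the middle one. Calls of list genes were not checked with centred libraries. From 30 to 60 min to 75 to 105 min, 0 of the 25 replication genes and 0 of 3 cyclins were higher (limma), beside 10.4% of all genes, and the difference from the histone genes was not tested. Named after their values were seen, the list genes that passed there were HIR1, a subunit of the HIR repressor complex, which rose by 0.75, and SWI4 (-1.16), SWR1 (-1.07), RFA1 (-0.91) and SWC5 (-0.81), which fell.

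Outside the family, 4131 genes listed in at least 23 libraries were ranked by Pearson's r with the mean log2 level of the 4 pair sums. The 5 highest were GAS3 (r = 0.85), BET1 (0.83), YOR248W (0.78), SRL1 (0.78) and SKG6 (0.76), over 25 libraries each and 23 for SKG6. These values share the depth and scaling of each library. GAS3, of a family of cell wall enzymes, stood at 6.25 log2 RPM at the start, 5.75 at 45 and 360 min, and 5.78 at 135 min. It reached 7.30 at 90 min and 6.97 at 210 min. BET1, which encodes a SNARE of transport to the Golgi, ran from 6.86 at 45 min to 7.36 at 90 min. SRL1 and YOR248W had values within 0.0047 of each other in every library and do not count as separate measurements.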

How the data were processed

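The deposited table holds log2 values for 25 libraries, and per the labels each column is a time point. Back on the linear scale each library sums to 1000000, so the deposited values are log2 RPM. The submitters' processing notes name Bowtie and R64. The version of the aligner, the annotation, read length and counting method: not given in the sources used here. Genes under 10 reads were taken to have no value, and the lowest value of each library was set to 10 reads. Read counts and depth rest on that setting, under which 93.5% to 95.4% of values were whole within 0.02 reads. Of 6701 rows, 51 had no name and 2 shared one. Precision is set by spread between libraries, and Poisson intervals cover counting error only.

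Log2 values were fitted without pseudocount with limma 3.58.1 in R 4.3.3 (lmFit, eBayes), with 0 min and 3 windows as levels. The lone 0 min library is taken to vary as the windows do. Genes needed a value in 6 or more of the 8 libraries in every window. A second fit used 9 libraries (30 to 60, 75 to 105 and 135 to 165 min). Benjamini-Hochberg adjustment covered all genes tested, with a threshold of 0.05. Copy ratios were compared by exact permutation of libraries (12870 splits), adjusted over 15 tests. No count test was run, because the deposited unit is log2. Copies, identities and motifs were read from the RefSeq R64 assembly with Biopython 1.88. Python 3.11.15, pandas 2.3.3, numpy 2.4.6 and scipy 1.17.1 were used.

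Members, lists and time groups were chosen with earlier results of these data known. Named were all members, CSE4, VTC4, in each list at most the 4 largest passing differences between the last and first windows, and the 5 genes most alike; other names are marked. Tested on simulated data of 4634 genes, the window fit recovered 88% of changes of 1 (log2) and 100% of changes of 2, with 13 false calls. The 9-library fit over 4614 genes recovered 37% and 94.9%. Whether these shares and the number of false calls hold for the deposited libraries, where neighbouring times are not independent, was not tested. Alternatives were scaling, filters, filling of missing values, added copies, library weights, spline degrees of freedom and leaving out libraries.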

Additional observations from a re-analysis of the deposited data

Results flagged for a closer look

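In groups of 8 libraries (7 for HHO1 in the last window), the highest or lowest value was compared with the gap expected of a sample from 1 group, for each gene, pair sum and ratio. Of 63 groups 7 had a value far from the others, where chance gives about 1 in 20 for separate groups. Genes, sums and ratios reuse the same values, so some deviations among these 7 are counted more than once. All 7 lay in the libraries at 195 and 345 min, the shallowest, at 106672 and 188278 reads. At 345 min HTA1 stood at 9.92 log2 RPM, below the 10.50 to 10.87 of the other late libraries, and HTZ1 stood at 6.73, below their lowest of 7.66. The log2 ratio HTA2/HTA1 was 0.28 at 195 min and 0.27 at 345 min, above every other library of its window. At 195 min the log2 ratio of the H2B to the H2A sum was -2.31, below the -1.57 to -1.22 of the others of its window. At 345 min the log2 ratio HHF2/HHF1 was -1.83, below the -1.16 to -0.96 of the others, and HTZ1 to the H2A sum was -4.33, below -3.57 to -3.04. Why these libraries differ was not tested.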

How the results depend on the processing

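No alternative turned the direction of a value that passed with or without it. Of 3763 values of single genes and ratios tried, 219 changed sign where neither value passed, 128 lost and 115 gained a call. Counts of histone genes called moved as follows, and with copies added a called pair counts for both copies. Last against first window (1): 3 with median centring, 2 when centred on the genes common to all 25 libraries, with library weights, or without 90 and 105 min, and 0 with copies added, also under both centrings and without 195 and 345 min. Middle against first (2): 0 with median centring, with single or added copies, 1 with the other centring, with genes listed in every library, without 195 and 345 min or with copies added, also with the other centring or without those libraries, and 4 with weights. Last against middle (1): 0 with median centring and in all 4 fits with copies added, 2 with the other centring, with genes listed in every library or without 90 and 105 min, 5 with weights. Middle against 0 min (1): 0 with median centring, with single or added copies, or with genes listed in every library, 2 with weights. Last against 0 min (1): 0 with genes listed in every library, with missing values filled, or with copies added under either centring, 2 with weights. From 30 to 60 to 75 to 105 min (5): 3 with missing values filled, 8 with copies added under either centring. From there to 135 to 165 min (1): 5 under either centring, 2 with copies added, 6 and 8 with copies added under median and other centring, 8 with weights. Spline (4): 1 with copies added, also with the other centring or without 195 and 345 min, 0 with copies added and median centring, 9 with weights, 7 without 90 and 105 min. Moves within 1.5 times were 3 for middle against first without 90 and 105 min, and, for 75 to 105 against 30 to 60 min, 7 under either centring or with weights and 4 with copies added. The count for last against 0 min was 1 under either centring, HHF2 in place of HHO1. Genes listed in every library exclude HHO1. The 0 called against 0 min in the first window, and from 30 to 60 to 135 to 165 min, held throughout.

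Leaving out 1 library at a time, the counts ran from 1 to 2 (last against first, last against middle, middle against 0 min), 1 to 3 (middle against first), 0 to 5 (75 to 105 against 30 to 60 min, 0 to 6 with copies added), 0 to 4 (135 to 165 against 75 to 105 min, 0 to 2 with copies added), 2 to 7 (spline) and 5 to 7 (ratios). The adjusted p of HHF2 from the first to the last window stayed between 0.000337 and 0.00233.

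No paired analysis was possible because each time point is a single library and numbers within a window only name times. Copy ratios from whole-read values alone were not run, since too few libraries were left. Additions chosen after seeing the data were the copies-added fits with centring or without libraries. Depth limits HHO1 (18 reads at 195 min) and HTZ1 (20 reads at 345 min), and no result separates the copies free of the unknown division of shared reads.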
